A study of Mus musculus with 8 samples.

Results

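The RGS genes encode regulators of G protein signalling, and 10 of them (Rgs1, Rgs2, Rgs3, Rgs4, Rgs5, Rgs10, Rgs12, Rgs14, Rgs16 and Rgs18) are described here by their rows in a table of 49315 genes. They were chosen by name from the family, and all 10 were found and passed the low-count filter. RNA of whole femoral shafts was sequenced from male mice, labelled C57BL6 and 24 weeks old. There were 4 Girk3-/- mice (KO), which lack the gene with the symbol Kcnj9, and 4 wild-type mice (WT), and the labels name no treatment. Bone ends had been cut away and the marrow flushed out with saline before RNA extraction. Each library was taken as 1 mouse, since the design gives 4 mice per genotype. The labels do not say in which cells or by which construct the gene was deleted.

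A G protein is switched on when a receptor loads its alpha subunit with GTP, and it switches itself off by hydrolysing that GTP. RGS proteins bind the active alpha subunit and speed this hydrolysis, so that signals through Gi/o and Gq end sooner. Girk3 is a subunit of potassium channels opened by the beta-gamma subunits that Gi/o releases, and RGS proteins are known to quicken the opening and closing of such channels. In bone, Rgs2 is known as an early response gene to parathyroid hormone in osteoblasts, and Rgs10, Rgs12 and Rgs18 have been tied to osteoclast formation in mice. Elsewhere in the tissue, Rgs5 marks pericytes of small vessels and Rgs18 is abundant in megakaryocytes and platelets.

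The libraries held 30937465 to 32348592 counts in KO and 30087749 to 36553713 in WT. Kcnj9 had 0 to 8 counts per KO library and 6 to 23 per WT library, and since the deleted part of the gene is not given, these counts check nothing about the genotypes. All 8 osteoblast markers and all 6 osteocyte markers were detected, with summed levels of 6255 to 11066 CPM (counts scaled to a common library size) in KO and 5689 to 13352 CPM in WT for osteoblasts. Skeletal muscle markers summed to 94908 to 157355 CPM in KO and 60617 to 110480 CPM in WT. The highest of these sums was in KO replicate 4 and the lowest in WT replicate 4. KO replicate 4 and WT replicate 4 lay at opposite ends of the first principal component, which held 33.5% of the variance. Several results below are given both with and without these libraries, which stood out in the same data and not by an outside measure.

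The family members differ at the very start of their proteins, and this start is known to set how long some of them last in the cell. A protein that begins with methionine and then cysteine loses the methionine, after which the exposed cysteine can be oxidised, tagged with arginine and recognised for degradation. The first 30 coding bases of the principal GENCODE M21 transcript of each member are shown 5′ to 3′ with the second codon in capitals.
Rgs4: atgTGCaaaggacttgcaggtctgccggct
Rgs5: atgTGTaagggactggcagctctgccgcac
Rgs16: atgTGCcgcaccctagccaccttccccaac
Rgs1: atgAGAgcggcagccatctccatgccaagg
Rgs2: atgCAAagtgccatgttcctggctgtccag
Rgs18: atgGATatgtcactggttttcttctctcaa
Rgs3: atgAACcgcttcaatgggctctgcaaagtg
Rgs10: atgTTCacccgcgccgtgagccgactgagc
Rgs12: atgTACagggctggggagccagggaaacgg
Rgs14: atgCCAgggaagcccaagcacttgggtgtc
Of the 10 members, 3 (Rgs4, Rgs5 and Rgs16) carry a cysteine codon, TGC or TGT, in this place and 7 do not. Rgs4 and Rgs5 also resemble each other most among the 6 short members of the R4 subfamily (Rgs1, Rgs2, Rgs4, Rgs5, Rgs16 and Rgs18), with 70.0% of 523 aligned coding bases identical, against 63.2% to 67.0% for the other pairs. No run of 50 bases was shared between the transcripts of any members, so reads of that length or longer could not be split between them. Of the 50-base words of a member's transcripts, 11.4% of those of Rgs3 occur in the pseudogene Gm5763, 4.28% of those of Rgs12 in its antisense neighbour Gm43791 and 8.34% of those of Rgs16 in its antisense neighbour Gm28513. These partners had at most 7 counts in any library, against at least 896 for Rgs3, 368 for Rgs12 and 26 for Rgs16. The strand setting of the counting is not given in the sources used here, so reads of Rgs12 and Rgs16 cannot be told apart from those of their antisense neighbours.

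The members spanned a wide range of levels, which were compared per kilobase of merged exon. Rgs5 stood highest, at 68.7 ± 8.80 CPM per kilobase (SD over all 8 libraries), and was 4.74 times the next member with no overlap of ranges. Rgs10 (14.5 ± 5.91) and Rgs18 (13.7 ± 6.08) followed at CPM per kilobase values that overlapped, with Rgs10 above Rgs18 in 5 of 8 libraries. Rgs2 came next at 8.91 ± 2.69 CPM per kilobase, and its range overlapped that of Rgs18. Rgs4 (3.66 ± 0.524), Rgs14 (3.37 ± 1.45) and Rgs3 (3.26 ± 0.342) did not differ beyond their spread in CPM per kilobase. Rgs12 lay below them at 2.30 ± 0.684 CPM per kilobase, with a range that overlapped that of Rgs3. Rgs16, at 0.761 ± 0.326, and Rgs1, at 0.127 ± 0.0567 CPM per kilobase, closed the order, and neither overlapped the member above it. The order thus put the vessel gene Rgs5 well above the members known from blood cells, and Rgs16 and Rgs1 at the bottom.

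**Figure D1:**
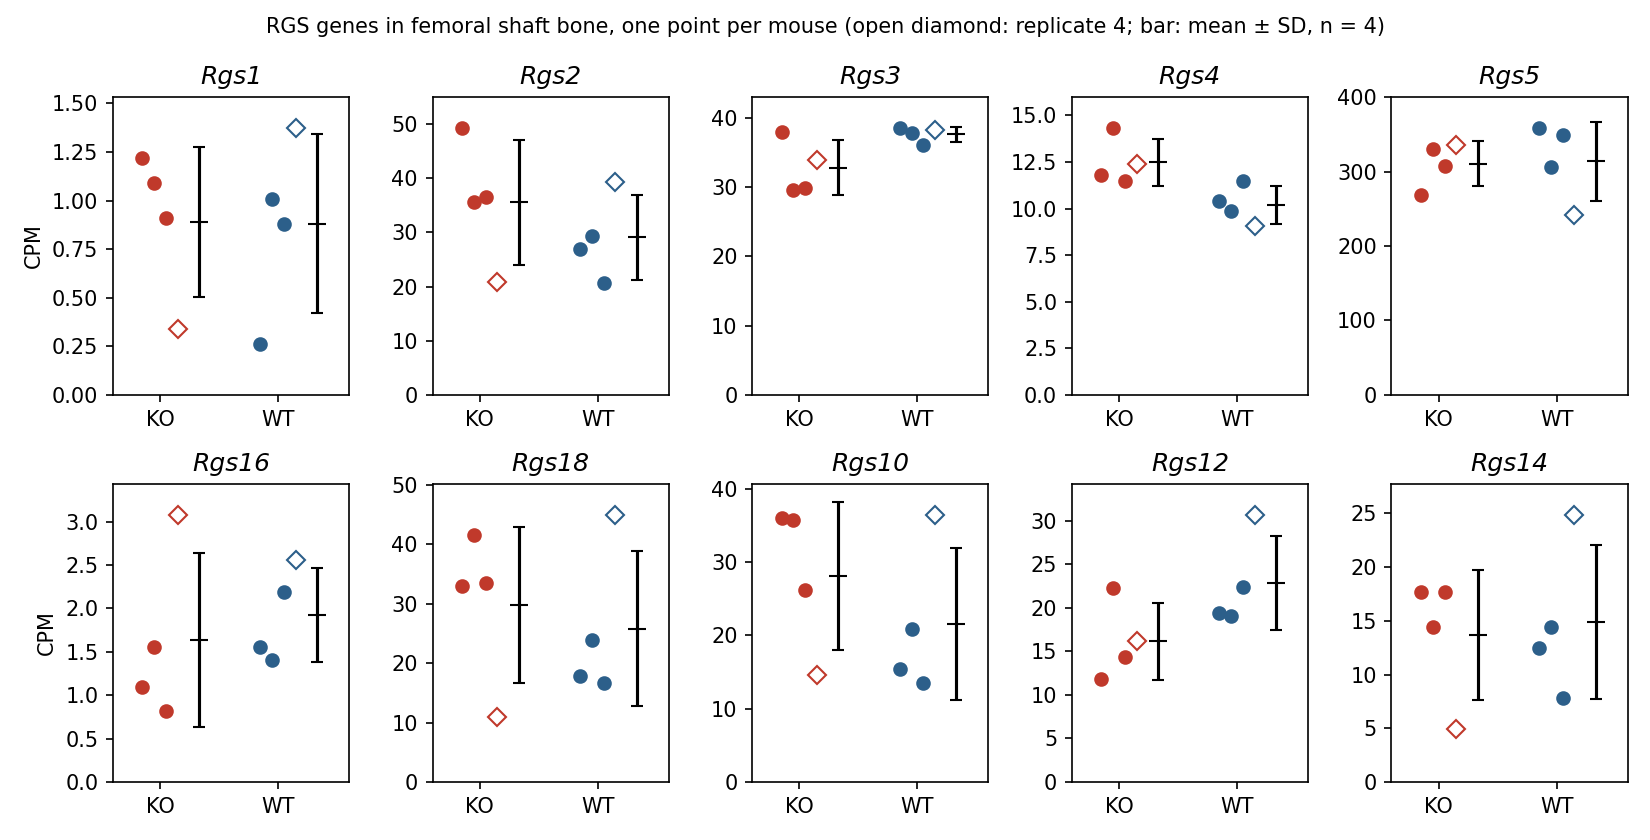
Levels of the 10 RGS genes in CPM (vertical axes, from 0), with 1 point per mouse for KO (left, red) and WT (right, blue), open diamonds for replicate 4, and the mean with its SD (n = 4) beside the points. KO replicate 4 is the lowest KO library and WT replicate 4 the highest WT library for Rgs1, Rgs2, Rgs10, Rgs14 and Rgs18, while Rgs3, Rgs4 and Rgs5 vary at most 1.58-fold over all 8 libraries.

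No member passed the test between KO and WT bone. With edgeR's quasi-likelihood test and Benjamini-Hochberg adjustment over 17450 genes, 0 of 10 members passed a threshold of 0.05, against 0.0115% of all genes tested. Their median log2 fold change was 0.0019, with 5 higher and 5 lower, beside -0.01 for all genes. Rgs4 and Rgs12 had an unadjusted p under 0.05, which 18.2% of all genes had. DESeq2 called 0 members, with 6.48% of all genes called and 2 members at an unadjusted p under 0.05, and limma-voom called 0, with 4.04% of all genes called and 3 members at an unadjusted p under 0.05. The KO and WT ranges overlapped for all 10 members, whereas they did not overlap for 13.1% of all genes tested. With 4 libraries per genotype, the test recovered 4.48% of genes changed 1.5-fold in simulated data and 64.2% of those changed 2-fold, so smaller differences could often not be detected at this depth and number of mice.

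**Figure D2:**
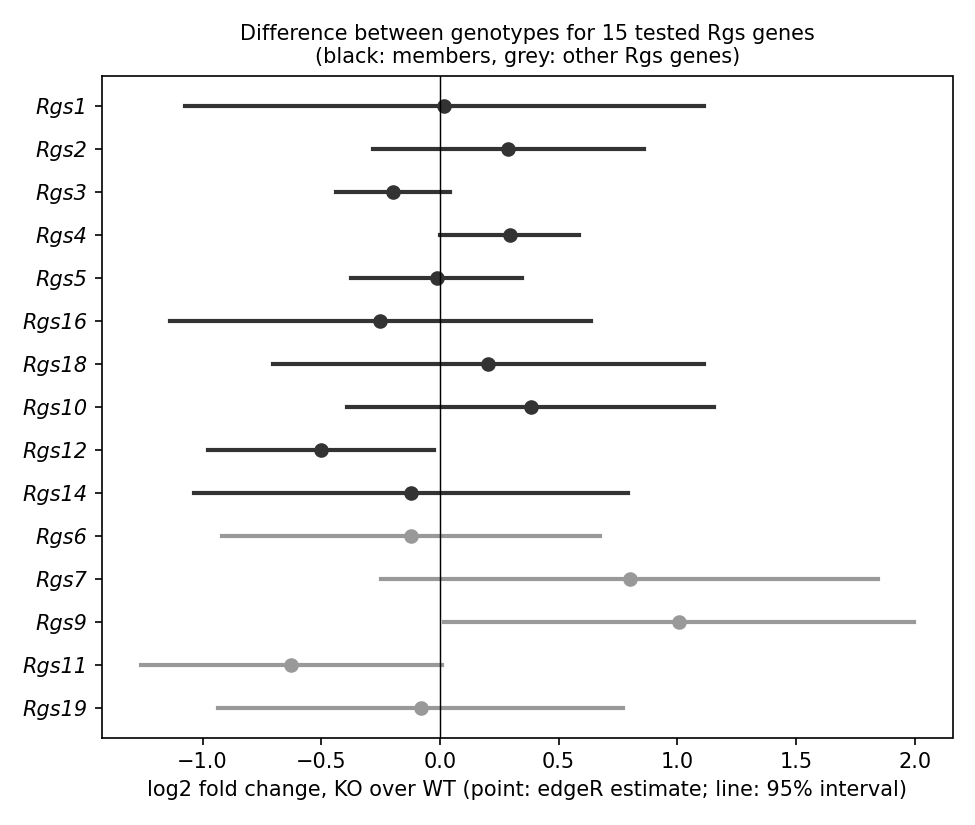
Log2 fold change of KO over WT (horizontal axis) from edgeR with its 95% interval, for the 10 members (black) and the 5 other tested Rgs genes (grey). The intervals are narrow for Rgs3, Rgs4 and Rgs5 and wide for Rgs1, Rgs10, Rgs14, Rgs16 and Rgs18, and no gene passed the adjusted threshold.

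The members of the vessel wall and nervous system, Rgs4 and Rgs5, lie side by side on chromosome 1 and are the members closest to the deleted gene. Rgs5 (ENSMUSG00000026678, chr1:169655501-169695813, plus strand, GRCm38) and Rgs4 (ENSMUSG00000038530, chr1:169741477-169747642, minus strand) face each other across 45.7 kb, at 2.62 and 2.57 Mb from Kcnj9. Rgs4, which acts on Gi/o and Gq alpha subunits, had 11.8, 14.3, 11.5 and 12.4 CPM in KO replicates 1 to 4, and 10.4, 9.86, 11.5 and 9.04 CPM in WT replicates 1 to 4. Every KO library lay above 3 of the 4 WT libraries, and the groups met at replicate 3 of each genotype. The log2 fold change was 0.29 (SE 0.13, 95% interval 0.0021 to 0.59, edgeR unadjusted p = 0.0487, adjusted p = 0.272), a fold of 1.23. Without both replicates 4 it was 0.24 (edgeR adjusted p = 0.343). It was 0.23 with a skeletal muscle score as covariate (edgeR adjusted p = 0.399) and 0.29 with a marrow score (edgeR adjusted p = 0.159). Rgs4 had r = 0.70 with smooth muscle and pericyte, 0.66 with skeletal muscle and -0.75 with B cell markers (mean log2 levels). What the Rgs4 values follow was not tested. Within 10 Mb of Kcnj9, 217 genes were tested, and 88 of them had a larger change in either direction than Rgs4. Of these 217 genes, 23.0% had an unadjusted p under 0.05, beside 18.2% of all genes tested. The 2 genes called in the whole series both lie in this window, and neither is an RGS gene. The unadjusted p of Rgs4 ranked 47 among these neighbours of the deleted gene.

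Rgs5, the pericyte gene, had 269, 330, 307 and 336 CPM in KO replicates 1 to 4, and 358, 306, 349 and 242 CPM in WT replicates 1 to 4. The lowest value belonged to WT replicate 4 and the groups overlapped throughout. The means were 311 ± 30.5 CPM in KO and 314 ± 52.9 CPM in WT (SD, n = 4 each), with a log2 fold change of -0.01 (95% interval -0.37 to 0.35, edgeR adjusted p = 0.976). As a fold, the interval ran from 0.772 to 1.27. Rgs5 had at least 8375 counts in each library, the most of any member.

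Upstream sequence is shown for both of these neighbours and for Rgs2, because hormone signals through cyclic AMP are the textbook inducer of Rgs2 in osteoblasts and act through a DNA element whose core is TGACG. The bases before the RefSeq start are given 5′ to 3′ (RefSeq, GRCm38.p6), without any base that lies in a GENCODE exon of the gene, and the capitals mark TGACG or its reverse complement CGTCA.
Rgs2 (chr1:144004162-144004399, minus strand): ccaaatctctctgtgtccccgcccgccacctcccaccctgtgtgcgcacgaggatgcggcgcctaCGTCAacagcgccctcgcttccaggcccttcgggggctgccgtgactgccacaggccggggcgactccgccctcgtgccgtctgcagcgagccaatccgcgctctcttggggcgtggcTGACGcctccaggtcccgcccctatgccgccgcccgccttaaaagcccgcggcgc
Rgs4 (chr1:169747643-169747892, minus strand): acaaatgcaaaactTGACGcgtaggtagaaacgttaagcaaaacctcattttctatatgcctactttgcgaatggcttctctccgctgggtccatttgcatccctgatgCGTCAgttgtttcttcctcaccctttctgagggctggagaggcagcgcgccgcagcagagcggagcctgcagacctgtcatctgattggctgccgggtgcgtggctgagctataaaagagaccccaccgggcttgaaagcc
Rgs5 (chr1:169655251-169655500, plus strand): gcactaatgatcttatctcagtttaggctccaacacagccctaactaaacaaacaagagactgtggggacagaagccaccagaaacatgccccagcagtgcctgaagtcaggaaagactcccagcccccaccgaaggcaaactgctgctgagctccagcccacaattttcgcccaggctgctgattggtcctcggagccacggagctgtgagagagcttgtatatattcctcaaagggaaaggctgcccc
The windows of Rgs2 and Rgs4 each held 2 matches over both strands, at 185 and 67 bases before the start of Rgs2 and at 236 and 141 bases before that of Rgs4, and the Rgs5 window held none. Among all 32851 RefSeq promoter windows of 250 bases, 17.8% held the motif, so these matches describe the letters and nothing more. Guanine and cytosine made up 71.8% of the Rgs2 window and 53.6% of the windows of Rgs4 and Rgs5. Promoter entries matched 7 of the 10 members. Rgs1, Rgs14 and Rgs18 had none.

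**Figure D3:**
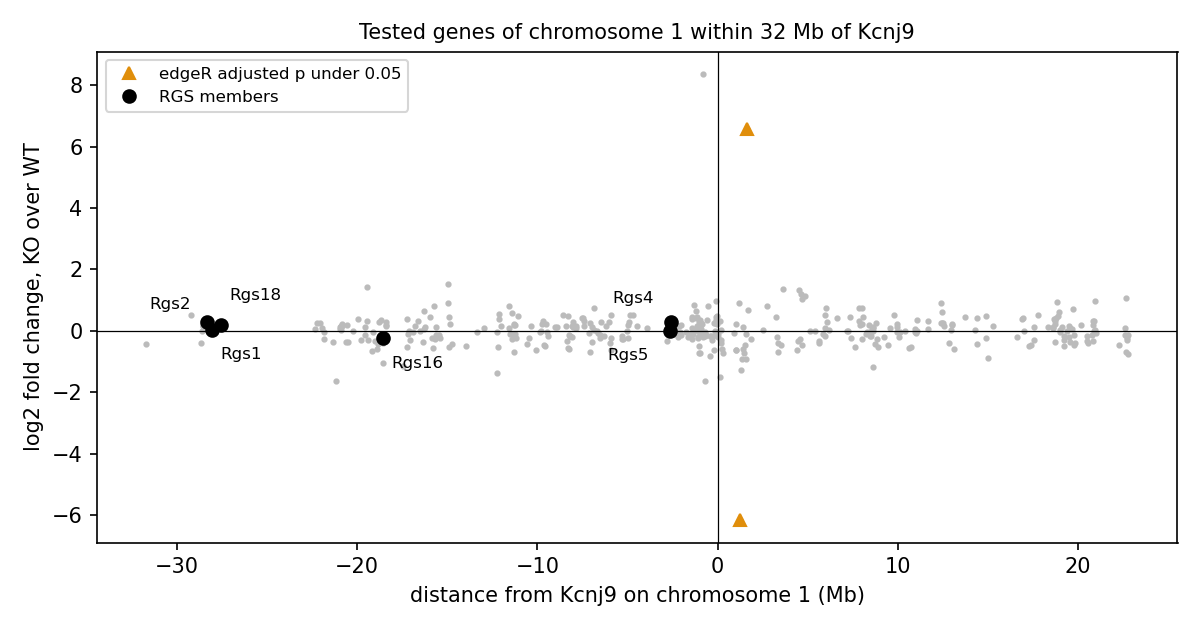
Log2 fold change of KO over WT (vertical axis) for each tested gene of chromosome 1 within 32 Mb of Kcnj9, against its distance from Kcnj9 in Mb (horizontal axis, negative on the side of lower coordinates). The 6 members on this chromosome (black) lie between -0.25 and 0.29, and the only genes with an adjusted p under 0.05 (orange triangles) are not RGS genes.

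Rgs1, Rgs2 and Rgs18 form a cluster with the untested Rgs13 and Rgs21 between 27.5 and 28.3 Mb from Kcnj9, and Rgs16 lies 18.6 Mb away. Rgs2 (ENSMUSG00000026360, chr1:143999338-144004161, minus strand), which is selective for Gq, had 49.2, 35.6, 36.5 and 20.9 CPM in KO replicates 1 to 4, and 27.0, 29.3, 20.6 and 39.4 CPM in WT replicates 1 to 4. KO replicate 4 was among the lowest of all 8 libraries and WT replicate 4 was above all but 1 KO library. The log2 fold change was 0.29 (95% interval -0.28 to 0.86, edgeR adjusted p = 0.603), and 0.66 (edgeR adjusted p = 0.0628) without both replicates 4. Immediate early genes, which respond within minutes to handling and to hormones as Rgs2 does, summed to 361 to 638 CPM in KO and 329 to 671 CPM in WT. The highest KO sum was that of replicate 4, where Rgs2 was lowest in KO. In WT the highest sum was also that of replicate 4, and there Rgs2 was highest in WT. Without both replicates 4 these sums were 361 to 563 CPM in KO and 329 to 364 CPM in WT. Over the 8 libraries, Rgs2 had r = 0.28 with the mean log2 level of these genes, and a Spearman rank correlation of 0.50. Its r was 0.95 with neutrophil markers, 0.88 with platelet markers and -0.82 with endothelial markers. With macrophage markers and with T and NK cell markers it was 0.80 each. With osteoblast markers it was 0.79, and with osteocyte markers 0.67. What the Rgs2 values follow was not tested. Of the 11 immediate early genes, 8 were higher and 3 lower in KO with a median log2 fold change of 0.21 and 0 called. Those with the smallest p were Ier2 (33.2 ± 5.40 CPM in KO and 21.8 ± 9.14 CPM in WT, edgeR adjusted p = 0.236) and Egr3 (1.13 ± 0.547 CPM in KO and 2.25 ± 1.56 CPM in WT, edgeR adjusted p = 0.317; SD, n = 4 each), neither of which passed.

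Rgs18 (ENSMUSG00000026357, chr1:144752683-144775435, minus strand), the platelet member, varied 4.12-fold over the 8 libraries. It had 33.1, 41.6, 33.5 and 10.9 CPM in KO replicates 1 to 4, and 17.8, 23.9, 16.7 and 44.9 CPM in WT replicates 1 to 4. Replicates 1 to 3 of KO were higher than those of WT without overlap, while KO replicate 4 was the lowest and WT replicate 4 the highest of all libraries. Over all 8 libraries the log2 fold change was 0.20 (95% interval -0.70 to 1.11, edgeR adjusted p = 0.841). Without both replicates 4 it was 0.89 (SE 0.16; edgeR gave an adjusted p of 0.0373), a fold of 1.85.

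Rgs10 (ENSMUSG00000030844, chr7:128373621-128418758, minus strand), a small protein of myeloid cells and platelets that acts on Gi/o, showed the same pattern. Its levels were 35.9, 35.8, 26.1 and 14.5 CPM in KO replicates 1 to 4, and 15.4, 20.9, 13.5 and 36.3 CPM in WT replicates 1 to 4. As for Rgs18, replicate 4 of each genotype broke a separation that held in replicates 1 to 3. The log2 fold change over all libraries was 0.38 (95% interval -0.39 to 1.16, edgeR adjusted p = 0.613), and 0.97 (SE 0.19; adjusted p of 0.0375 by edgeR) without both replicates 4. In that smaller comparison 2.62% of 17491 genes were called, and Rgs10 and Rgs18 were the only members among them, both higher in KO. The libraries left out stood out in these same data, and they held the lowest KO and the highest WT value of both genes. Leaving them out thus had to raise KO over WT and narrow the spread, so these calls are no independent support for a difference. Neither gene was called when 1 library alone was left out. With a skeletal muscle score as covariate and all libraries kept, the log2 fold changes were 1.17 for Rgs10 (edgeR adjusted p = 0.0585) and 1.08 for Rgs18 (edgeR adjusted p = 0.0723). With a marrow score they were 0.46 (edgeR adjusted p = 0.0532) for Rgs10 and 0.27 (edgeR adjusted p = 0.365) for Rgs18.

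Over the 8 libraries, Rgs18 had r = 0.99 with the mean log2 level of platelet markers. Its r was 0.90 with neutrophil, 0.90 with macrophage, 0.88 with T and NK cell and 0.54 with osteoclast markers. In the same order, Rgs10 had r of 0.95, 0.86, 0.81, 0.77 and 0.62. Markers of several blood cells thus moved with these members. All 10 megakaryocyte and platelet markers were detected. They summed to 240, 692, 804 and 939 CPM in the KO libraries, the first of these being replicate 4, and to 338, 403, 494 and 1082 CPM in the WT libraries, the last being replicate 4. Without both replicates 4 the sums were 692 to 939 CPM in KO and 338 to 494 CPM in WT, and edgeR called 6 of the 10 markers higher in KO (Pf4, Ppbp, Gp1bb, Gp5, Gp9 and Treml1) and 0 lower. Neutrophil markers also separated there, at 3642 to 7290 CPM in KO and 1529 to 3223 CPM in WT. For both lists the libraries left out held the lowest KO and the highest WT sum, so the same limit applies. The summed levels of Schwann cell markers and of smooth muscle and pericyte markers did not overlap there either, but the mean log2 levels of both lists did overlap. The part of these cells in the calls of Rgs10 and Rgs18 was not tested, and in bulk tissue fewer cells of a type cannot be told apart from less RNA per cell. Rgs18 per 100 CPM of the platelet markers was 4.48 ± 0.299 CPM in KO and 4.58 ± 0.369 CPM in WT (SD, n = 4 each), and this ratio varied 1.20-fold over the 8 libraries where Rgs18 itself varied 4.12-fold. Of 150 ratios between a member and a summed list, chosen after the values were seen, this one had the smallest coefficient of variation, 6.97%. The next smallest, 8.38%, was that of Rgs5 to the smooth muscle and pericyte markers, with 77.6 ± 8.83 CPM of Rgs5 per 100 CPM of markers in KO and 75.7 ± 3.99 CPM in WT (SD, n = 4 each). Rgs5 itself varied only 1.48-fold, with a coefficient of variation of 12.8%, against 1.30-fold for this ratio, and its r with the mean log2 level of these markers was 0.32 over the 8 libraries. The KO and WT ranges of both ratios overlapped.

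**Figure D4:**
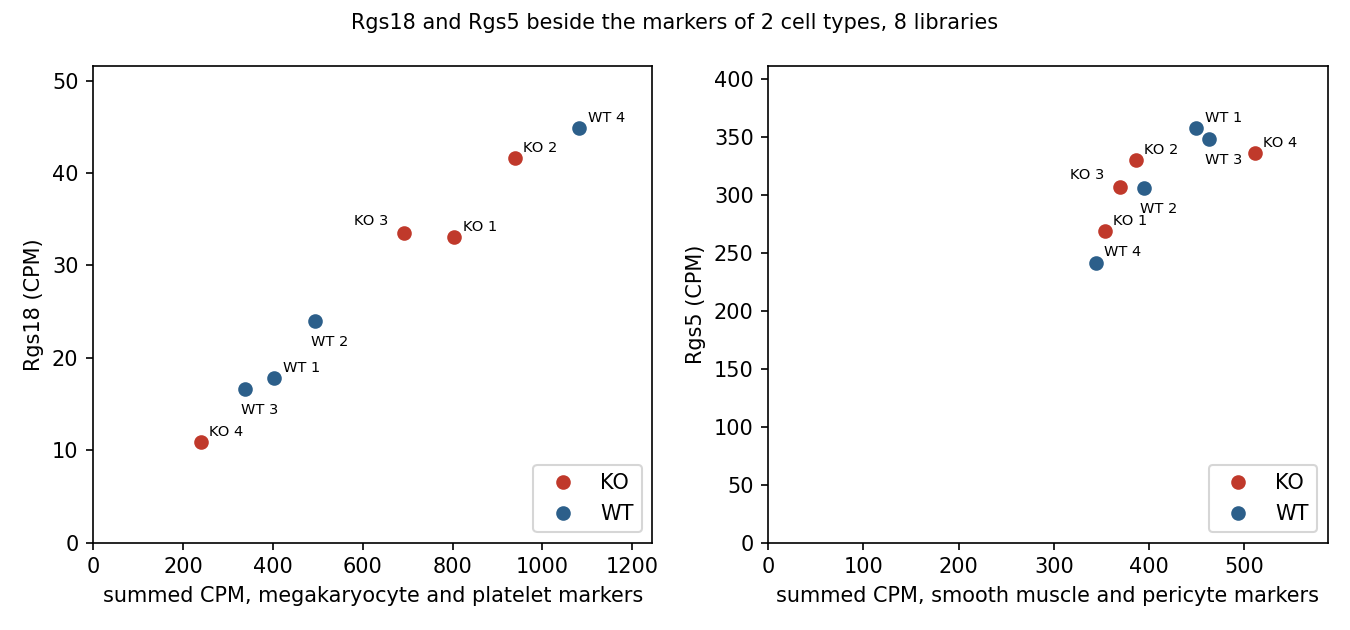
Level of Rgs18 against the summed megakaryocyte and platelet markers (left) and of Rgs5 against the summed smooth muscle and pericyte markers (right), all in CPM from 0, with 1 labelled point per library (red KO, blue WT). Rgs18 is higher where the platelet markers are higher, from KO replicate 4 at 10.9 CPM to WT replicate 4 at 44.9 CPM, with KO and WT points interleaved.

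The genes whose levels ran most like those of each member were taken from all tested genes with a mean of at least 1 CPM, by Pearson r of log2 CPM over 8 libraries that share depth and tissue makeup. For Rgs18 these were the platelet chemokine gene Ppbp, Ubash3b and the platelet receptor gene Treml1 (r = 0.996, 0.994 and 0.991). For Rgs14 they were Ccdc125, Ccdc88b and Was, the gene of the Wiskott-Aldrich syndrome protein of blood cells (r = 0.996, 0.995 and 0.995), and for Rgs10 they were the adaptor gene Dok2, Tesc and Sae1 (r = 0.988, 0.981 and 0.979). Rgs2 was most like Prr13, Gmds and Dstn (r = 0.984, 0.983 and 0.982), and Rgs5 was most like Efcab14, Zhx3 and Zbtb16 (r = 0.984, 0.976 and 0.972). Rgs4 had Isoc2a, Gm10053 and Galt (r = 0.957, 0.937 and 0.936), and Rgs3 had Samd4b, Wdr78 and Klf4 (r = 0.970, 0.945 and 0.940). Rgs16 had Fuz, Stk11 and Ppp1r37 (r = 0.992, 0.948 and 0.930), and the scarce Rgs1 had Cyren, Fam167b and Gm9958 (r = 0.961, 0.960 and 0.953). Among the members themselves, Rgs10 and Rgs18 (r = 0.932), Rgs2 and Rgs10 (r = 0.930) and Rgs14 and Rgs18 (r = 0.914) ran most alike, while Rgs5 ran against Rgs10 (r = -0.76). None of the 30 genes most alike passed edgeR's test between genotypes, with adjusted p values from 0.149 for Gm10053 to 0.994 for Efcab14. Only 0.0115% of all genes tested passed. These 30 were also picked for running like members that did not pass, over the same libraries, so their count adds nothing.

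**Figure D5:**
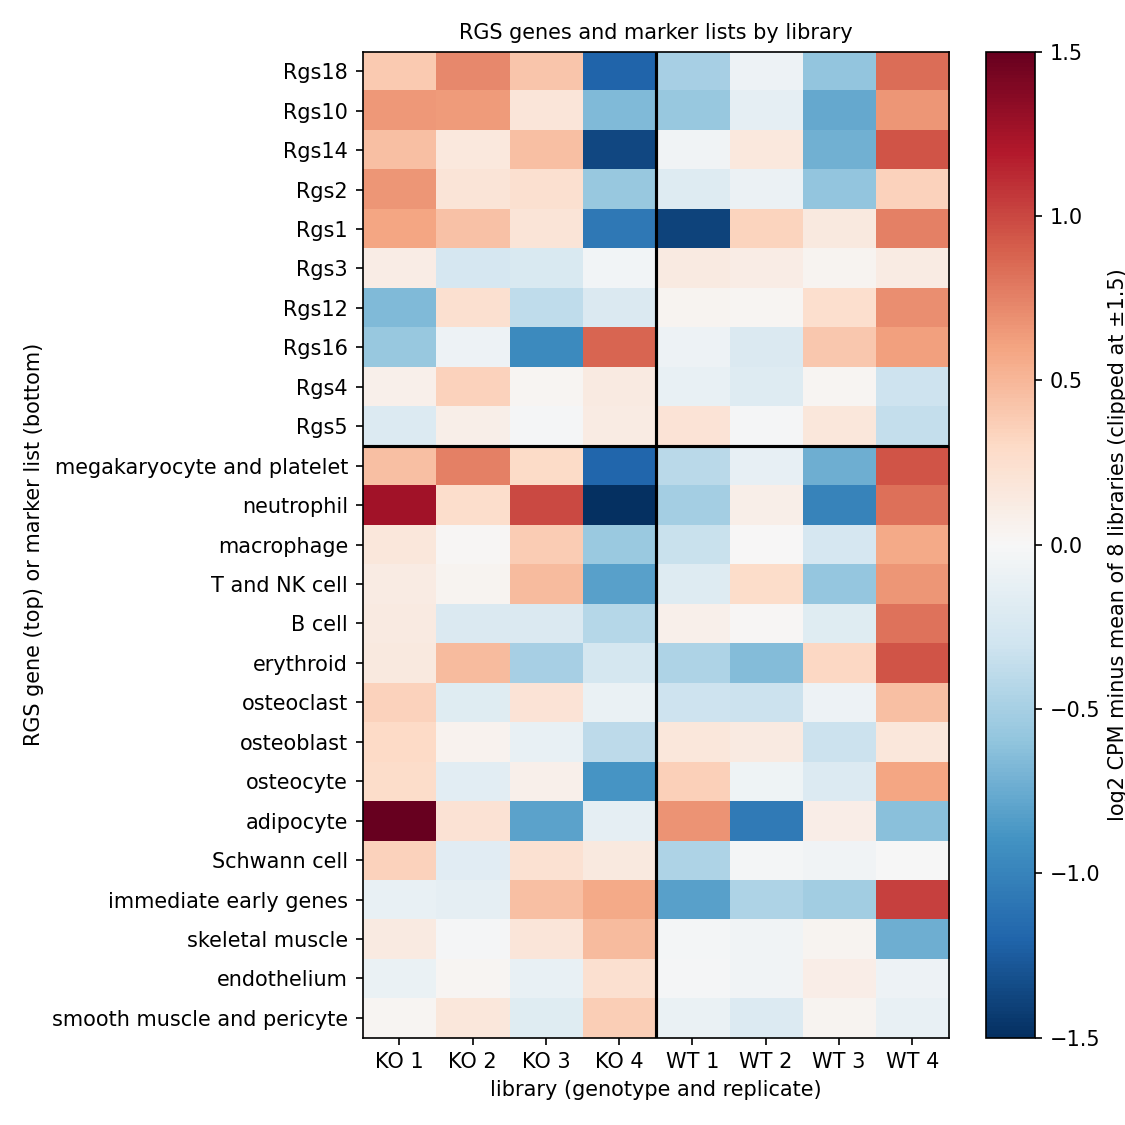
Log2 CPM of each RGS gene (top) and mean log2 CPM of each marker list (bottom), minus the mean of the 8 libraries, with KO libraries left and WT libraries right (red higher, blue lower, clipped at 1.5). Rgs18, Rgs10, Rgs14 and Rgs2 are low in KO replicate 4 and high in WT replicate 4. So are the megakaryocyte and platelet, neutrophil, macrophage, T and NK cell, B cell and osteocyte markers. The erythroid, osteoblast and osteoclast markers have the same signs there, while the skeletal muscle markers run the other way. Rgs3, Rgs4 and Rgs5 stay close to their means.

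The remaining members join an RGS domain to others or are found at low levels. Rgs12 (ENSMUSG00000029101, chr5:34949445-35039644, plus strand), a large protein with further domains that bind Ras and Gi alpha, had 11.8, 22.2, 14.4 and 16.2 CPM in KO replicates 1 to 4, and 19.4, 19.1, 22.4 and 30.6 CPM in WT replicates 1 to 4. Only KO replicate 2 reached into the WT range. Its log2 fold change of -0.50 (SE 0.21, 95% interval -0.98 to -0.03, edgeR unadjusted p = 0.0407, adjusted p = 0.252) was the largest in size among the members and did not pass. Without both replicates 4 it was -0.33 (edgeR adjusted p = 0.373). With the muscle score it was -0.20 (edgeR adjusted p = 0.615), and with the marrow score -0.47 (edgeR adjusted p = 0.181). Rgs12 ran most like Trim58, Myef2 and Ncoa7 (r = 0.993, 0.986 and 0.984 over the 8 libraries), of which Trim58 is known from red cell precursors. Erythroid markers, all 8 detected, summed to 4449 to 8920 CPM in KO and 3657 to 11637 CPM in WT. Rgs12 had r = 0.58 with the mean log2 level of the erythroid markers and -0.76 with that of the skeletal muscle markers. The part of either tissue in the Rgs12 values was not tested.

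Rgs14 (ENSMUSG00000052087, chr13:55369732-55384687, plus strand), the close relative of Rgs12 with the same kind of domains, had 17.7, 14.4, 17.7 and 4.97 CPM in KO replicates 1 to 4, and 12.4, 14.4, 7.80 and 24.8 CPM in WT replicates 1 to 4. KO replicate 4 was the lowest and WT replicate 4 the highest of all libraries, as for Rgs18. The log2 fold change was -0.12 (95% interval -1.04 to 0.79, edgeR adjusted p = 0.913), and it was 0.52 (edgeR adjusted p = 0.173) without both replicates 4. With the muscle score it was 0.70 (edgeR adjusted p = 0.268), so its sign depended on the libraries and terms in the fit.

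Rgs3 (ENSMUSG00000059810, chr4:62559847-62704001, plus strand), a regulator of Gi and Gq signals with several isoforms, was the steadiest member, with 37.9, 29.5, 29.9 and 34.0 CPM in KO replicates 1 to 4, and 38.4, 37.7, 36.1 and 38.2 CPM in WT replicates 1 to 4. The WT libraries lay close together and only KO replicate 1 fell among them. The log2 fold change was -0.20 (SE 0.11, 95% interval -0.44 to 0.04, edgeR adjusted p = 0.371).

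The members known from other work to be induced in activated lymphocytes were scarce. Rgs16 (ENSMUSG00000026475, chr1:153740349-153745468, plus strand) had 1.09, 1.56, 0.816 and 3.07 CPM in KO replicates 1 to 4, and 1.56, 1.40, 2.19 and 2.56 CPM in WT replicates 1 to 4. KO replicate 4 was the highest of all libraries for Rgs16, and the groups overlapped. Rgs1 (ENSMUSG00000026358, chr1:144242296-144249242, minus strand), which curbs chemokine receptor signals in B and T cells, had 38, 37, 29 and 9 counts in KO replicates 1 to 4, and 9, 33, 26 and 59 counts in WT replicates 1 to 4. The 95% intervals of the fold ran from 0.454 to 1.55 for Rgs16 and from 0.474 to 2.16 for Rgs1, so a 2-fold change of Rgs1 in either direction lay inside its interval. The lowest counts of Rgs1 were in KO replicate 4 and WT replicate 1, and the groups overlapped. The log2 fold changes were -0.25 for Rgs16 and 0.02 for Rgs1 (edgeR adjusted p = 0.792 and 0.991). That of Rgs1 was 0.59 without both replicates 4 (edgeR adjusted p = 0.474) and 0.70 with a skeletal muscle score as covariate (edgeR adjusted p = 0.447). T and NK cell markers summed to 7.54 to 26.1 CPM in KO and 9.08 to 25.6 CPM in WT. Over the 8 libraries, Rgs16 had r = -0.52 with the mean log2 level of these markers. Its r was 0.12 with B cell markers and 0.74 with endothelial markers. For Rgs1 the r was 0.66 with T and NK cell, 0.43 with B cell and -0.55 with endothelial markers. Which cells the values of either gene follow was not tested.

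The rest of the Rgs genes added no call. Of 12 others, 5 passed the low-count filter, 2 with higher and 3 with lower values in KO, and 0 passed edgeR's adjusted threshold. An unadjusted p under 0.05 was found for 1 of these 5 (20%), beside 18.2% of all genes tested. Rgs19, which acts on Gi and Gz, was the best expressed of them, with 24.6, 17.7, 23.3 and 7.24 CPM in KO replicates 1 to 4, and 15.6, 20.3, 10.8 and 30.2 CPM in WT replicates 1 to 4. It again had its lowest value in KO replicate 4 and its highest in WT replicate 4 (log2 fold change -0.08, edgeR adjusted p = 0.941). The R7 members, which pair with Gnb5 and are the known partners of Gi/o signalling to potassium channels in neurons, were scarce. Rgs9 had 14 to 47 counts per KO library and 10 to 23 per WT library (log2 fold change 1.01 with an SE of 0.45; adjusted p = 0.268 by edgeR), and Rgs11 averaged 2.40 ± 0.685 CPM in KO and 3.71 ± 1.30 CPM in WT (SD, n = 4 each, edgeR adjusted p = 0.280). Rgs7 had 10 to 18 counts per KO library and 3 to 16 per WT library, and Rgs6 had 13 to 21 per KO library and 13 to 28 per WT library. Rgs11 shares exon bases with Arhgdig on the other strand, so its reads are uncertain. Of their 3 partner genes, 2 were higher and 1 lower with 0 called. Gnb5 was at 20.5 ± 2.36 CPM in KO and 19.2 ± 4.06 CPM in WT, and the membrane anchor gene Rgs9bp at 0.514 ± 0.136 CPM in KO and 0.613 ± 0.301 CPM in WT (SD, n = 4 each). Rgs21 and Rgs22 had 0 counts in all WT libraries, which allows a level of up to 0.0215 CPM in that group, and 2 and 4 counts in the KO libraries together. This floor covers counting error only.

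The proteins on which RGS genes act, and those that act on RGS proteins, were likewise without a called gene. Of 13 G alpha subunit genes, all tested, 9 were higher and 4 lower in KO with a median log2 fold change of 0.02. Of them, 0 had an unadjusted p under 0.05, beside 18.2% of all genes tested. Gna12 was at 53.4 ± 1.68 CPM in KO and 49.3 ± 4.11 CPM in WT (SD, n = 4 each), and Gna11, of the Gq class, ranged over 57.7 to 81.8 CPM in KO and 52.0 to 64.9 CPM in WT. Of 14 other genes whose proteins hold an RGS domain, 4 were higher and 10 lower with a median of -0.10, and 0 were called. Beside 18.2% of all genes tested, 2 of these 14 (14.3%) had an unadjusted p under 0.05. These were Arhgef12 (82.5 ± 15.2 CPM in KO and 107 ± 16.2 CPM in WT, edgeR adjusted p = 0.246), and the receptor kinase gene Grk3 (25.5 ± 3.88 CPM in KO and 32.8 ± 6.16 CPM in WT, edgeR adjusted p = 0.267; SD, n = 4 each).

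Among 4 tested genes of GoLoco proteins, which hold Gi alpha in its inactive form, 1 was higher and 3 lower with a median of -0.28. Rap1gap, which also switches off Rap, had 8.47 to 13.0 CPM in KO and 14.4 to 21.0 CPM in WT with no overlap (log2 fold change -0.59 with an SE of 0.18; edgeR gave an unadjusted p = 0.0072 and an adjusted p = 0.131). Gpsm1 had 13.2 to 14.5 CPM in KO and 15.3 to 17.9 CPM in WT, also with no overlap (log2 fold change -0.24, edgeR adjusted p = 0.275). Groups that do not overlap were found for 13.1% of all genes, so such a separation was common.

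The enzymes that degrade proteins with a cysteine start, which the sequences above show for Rgs4, Rgs5 and Rgs16, had 3 genes higher and 3 lower of 6 tested, with 0 called. Ubr2, a ligase that recognises the arginine tag, was at 85.3 ± 12.3 CPM in KO and 110 ± 15.9 CPM in WT (edgeR unadjusted p = 0.0333, adjusted p = 0.233), and Metap1, which removes the first methionine, was at 77.2 ± 8.03 CPM in KO and 66.1 ± 8.29 CPM in WT (SD, n = 4 each). RNA levels say nothing about the amount of the RGS proteins themselves, which such enzymes govern. Of the other GIRK subunit genes, Kcnj3 was at 1.27 ± 0.685 CPM in KO and 1.10 ± 0.144 CPM in WT, and Kcnj5 at 7.12 ± 3.66 CPM in KO and 6.09 ± 3.79 CPM in WT (SD, n = 4 each).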

How the data were processed

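The authors deposited whole-number read counts per Ensembl gene, with no normalization. The submitters' processing notes list STAR 2.5.2b, featureCounts, Subread 1.5.2, bcl2fastq 2.17 and the build mm10. No settings or annotation were stated there. GENCODE M21 (GRCm38, the same build) gave symbols for 49056 of 49315 IDs, coordinates and merged exon lengths.

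The genotypes were tested against each other by edgeR 4.0.16 (R 4.3.3; quasi-likelihood test, robust dispersion, TMM, filterByExpr, group as the only term), with Benjamini-Hochberg adjustment over 17450 genes and 0.05 as the limit. CPM values here use library sizes after TMM scaling, and log2 CPM used a prior count of 2. DESeq2 1.42.0 and limma-voom (limma 3.58.1) were alternatives. Every limma-voom result here comes from the form with quality weights, in which each library has its own weight in the fit. The fit was tested on simulated data with 200 changed genes. No pair of libraries was a repeat, since the chi-square per degree of freedom was at least 32.4.

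The members and all gene lists were chosen with earlier results of these data known. Named genes are the members, the other Rgs genes, in each further list the called genes or else the 2 with the smallest p, and the 3 genes most alike to each member. Ratios to marker sums were chosen after the values were seen. Alternatives were other tools, scalings, filters and covariates, a replicate block and left-out libraries. Nothing in the labels says that replicate numbers pair mice.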

Additional observations from a re-analysis of the deposited data

Results flagged for a closer look

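The highest or lowest library stood far from the other 3 of its genotype in 4 of 88 groups of 4 libraries examined, none of them a group of an RGS member listed at the start, and chance flags about 1 in 20 such groups. WT replicate 4 lay apart in 3 cases: the summed immediate early genes at 671 CPM against 364 CPM in the next library, Egr3 at 4.58 CPM against 1.69 CPM, and Gpsm1 at 17.9 CPM against 15.7 CPM. KO replicate 4 lay apart for Rgs6, at 0.796 CPM against 0.471 CPM in the next library.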

How the results depend on the processing

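The count of members called was 0 under 19 of 20 alternatives and 2 (Rgs10 and Rgs18) without both replicates 4. The count of all genes called, 2, was 992 with DESeq2, 705 with limma-voom, 71 without a low-count filter, 7 with a muscle score and 1355 with a marrow score as covariate, 4 with the exon length trend removed, 493 at a threshold of 0.10, 458 without both replicates 4, and 2 to 4 with 1 library left out. Library totals without TMM moved the median log2 fold change of all genes to -0.11 and gave 1 higher and 2 lower calls. No source pairs the mice; same-numbered libraries had correlations of -0.57 to -0.17 in their deviations from the group means, and with the replicate block 1 gene and 0 members were called. Rgs2, Rgs3, Rgs4, Rgs10, Rgs12 and Rgs16 kept their sign in all 20 alternatives, of which the threshold of 0.10 reuses the main fit. Sizes were less stable: Rgs3 was -0.018 with the length trend removed (edgeR adjusted p = 0.965), and Rgs16 was -0.026 without KO replicate 3. With the length trend removed, 0 members had an unadjusted p under 0.05 by edgeR. Rgs14 turned positive with limma-voom (0.19), with the muscle score (0.70) and without both replicates 4 (0.52), Rgs1 turned negative with library totals (-0.080), and Rgs5 turned positive with the length trend removed (0.036); the cause was not tested. Leaving out 1 library gave -0.28 to 0.32 for Rgs1, -0.12 to 0.055 for Rgs5, -0.33 to 0.24 for Rgs14 and -0.00066 to 0.61 for Rgs18, none of them called. Rgs1 had as few as 9 counts in a library, yet the intervals of Rgs14 and Rgs18, with at least 131 and 287 counts, were nearly as wide.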
